A study of Caenorhabditis elegans with 2 samples.

Results

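The integrin adhesion complex of worm muscle was examined as 10 genes, of 19973 protein-coding genes in the annotation. The genes were pat-2 and pat-3 (alpha and beta integrin), unc-112 (kindlin), tln-1 (talin), pat-4 (integrin-linked kinase), pat-6 (parvin), unc-97 (PINCH), deb-1 (vinculin), atn-1 (alpha-actinin) and zyx-1 (zyxin). They were chosen by name for their place in the complex, with earlier results of these data known. A region was assigned to a gene when its summit lay between 3000 bp upstream of the gene and the gene's end. By this rule 63 of 30000 regions of the pooled reads, 55 of 30000 regions of replicate 1 and 70 of 30000 regions of replicate 2 belonged to the 10 genes.

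Chromatin immunoprecipitation with sequencing (ChIP-seq) mapped PAT-9, a zinc finger transcription factor required in developing body wall muscle, in whole late Caenorhabditis elegans embryos of strain RW12085. There was 1 group of 2 biological replicates, with both sexes pooled, eggs obtained by bleaching and an age label of 3 hours, and the strain carries a tagged pat-9 allele. The strain field names a CRISPR insertion of mNG with 3xFlag at pat-9, whereas other fields name an eGFP fusion or a C-terminal GFP-FLAG tag, and chromatin was precipitated with a GFP antibody; the fields contradict each other. A control library is named in the labels and was not analysed here. In whole embryos a strong signal in few cells and a weak one in many cannot be told apart.

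Integrins are heterodimeric receptors that span the muscle membrane and hold the contractile lattice to the extracellular matrix. On their cytoplasmic side, kindlin and talin bind the integrin tail, and integrin-linked kinase, parvin and PINCH form a scaffold beside them. In the body wall muscle of the worm this complex builds the base of dense bodies, the counterparts of vertebrate Z-discs and focal adhesions, where vinculin, alpha-actinin and zyxin link it to actin filaments, and its integrin layer is also found at M-lines. Embryos that lack integrin, kindlin or integrin-linked kinase are paralysed and stop elongating, the same phenotype after which pat-9 was named.

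Each region carries the authors' deposited signal value, which holds within a list, and regions were ranked by it from 1, the strongest, to 30000. The authors' optimal list, derived from the replicate and pooled lists by their reproducibility filter (IDR), held 735 peaks, which were exactly the 735 pooled regions of highest signal, down to a signal of 101.3. No threshold had been applied to the lists of 30000 regions, whose lower ranks are therefore background by design. Optimal peaks made up 2.45% of the pooled regions. The lists do not give read depth, and with 2 replicates the precision is limited.

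The sequences below are those at the upstream summits on which the results for pat-3, unc-112, pat-4 and zyx-1 turn, with 50 bp on each side of the summit. They run 5′ to 3′ on the strand of the named gene, from the RefSeq sequence of WBcel235, the assembly also called ce11. Capitals mark matches, on either strand, to the E-box letters CANNTG, to the word CGCGCA and to the repeat GAGAGA. The windows are chrIII:3916764-3916864 and chrIII:3914962-3915062 (minus strand) for pat-3, chrV:14697105-14697205 (minus) for unc-112, chrIII:96302-96402 and chrIII:95063-95163 (minus) for pat-4, and chrII:13056620-13056720 (plus) for zyx-1. Distances in the names run from the gene's own transcript 5′ end to the summit, with upstream negative.
pat-3, summit at -2665 bp: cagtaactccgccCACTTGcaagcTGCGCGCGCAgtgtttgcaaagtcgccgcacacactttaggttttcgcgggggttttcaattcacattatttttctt
pat-3, summit at -863 bp: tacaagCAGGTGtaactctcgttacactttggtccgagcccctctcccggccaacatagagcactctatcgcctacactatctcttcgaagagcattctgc
unc-112, summit at -501 bp: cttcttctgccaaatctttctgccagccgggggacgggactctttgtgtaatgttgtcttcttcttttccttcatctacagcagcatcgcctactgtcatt
pat-4, summit at -1543 bp: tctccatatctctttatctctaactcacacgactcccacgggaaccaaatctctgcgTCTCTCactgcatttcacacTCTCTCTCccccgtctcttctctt
pat-4, summit at -304 bp: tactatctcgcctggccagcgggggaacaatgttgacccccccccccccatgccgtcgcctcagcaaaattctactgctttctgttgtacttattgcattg
zyx-1, summit at -240 bp: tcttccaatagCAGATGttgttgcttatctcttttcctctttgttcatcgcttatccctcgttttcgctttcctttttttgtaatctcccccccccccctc

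PAT-9 had an optimal peak at 5 of the 10 genes: the beta integrin gene pat-3, the kindlin gene unc-112, the integrin-linked kinase gene pat-4, the talin gene tln-1 and the zyxin gene zyx-1. Over all protein-coding genes 979 of 19973, or 4.9%, had an optimal peak in the same kind of window. The windows of the 10 genes were long, with a median of 8698 bp against 5027 bp for all genes, and among the 10811 genes with windows in the same range of 4833 to 22103 bp the share was 6.02%. All 5 peaks lay upstream of the gene and none inside it, and of all protein-coding genes 1.15% had one inside. At 2 of the 5, pat-3 and pat-4, another protein-coding gene started nearer to the summit, so that unc-112, tln-1 and zyx-1 were the 3 genes with an optimal peak nearest to a start of their own. That stricter condition was met by 571 of all 19973 genes, or 2.86%. Over all 979 genes with an optimal peak, 408 (41.7%) had it only through summits nearer to another gene's start.

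The 10 genes ranged from 79 to 7772 in the rank of their strongest pooled region. In that pooled list the ranks had a median of 1187.5 over the 10 genes, against 8374 over the 13523 protein-coding genes with any region. Medians in the replicates' own lists were 1045.5 for the 10 genes against 8897 for all genes in replicate 1, and 1500 against 8864 in replicate 2. None of these medians was matched for window length, which had a median of 8698 bp at the 10 genes against 5027 bp over all genes. Taking the 735 strongest regions of replicate 1 alone, 4 of the 10 genes were called (pat-3, unc-112, pat-4 and zyx-1), where 4.73% of all genes were. In replicate 2 alone 4 were called (pat-3, unc-112, tln-1 and pat-4), where 4.72% of all genes were. At 3 genes, pat-3, unc-112 and pat-4, the same pooled region was among the 735 strongest in both replicates. Doubling the number of pooled regions to 1470 added none of the other 5 genes, while the share of all genes grew to 9.05%. The weakest of the 5 was tln-1 at rank 650, and the next gene, unc-97, followed at rank 1725.

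**Figure D1:**
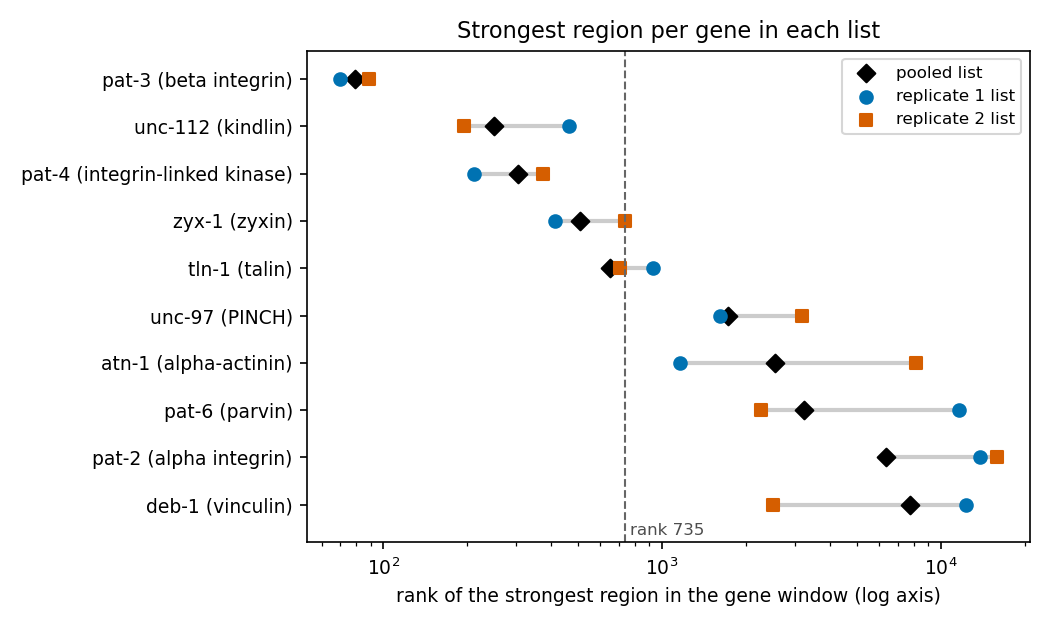
Rank of the strongest region in the window of each gene (log axis, 1 is strongest) in the pooled list (diamonds), the replicate 1 list (circles) and the replicate 2 list (squares), with a dashed line at rank 735, the number of optimal peaks. For pat-3, unc-112 and pat-4 all 3 ranks lie left of the line, for zyx-1 and tln-1 the pooled rank and 1 replicate's rank do, and for the other 5 genes all 3 lie right of it.

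**Figure D2:**
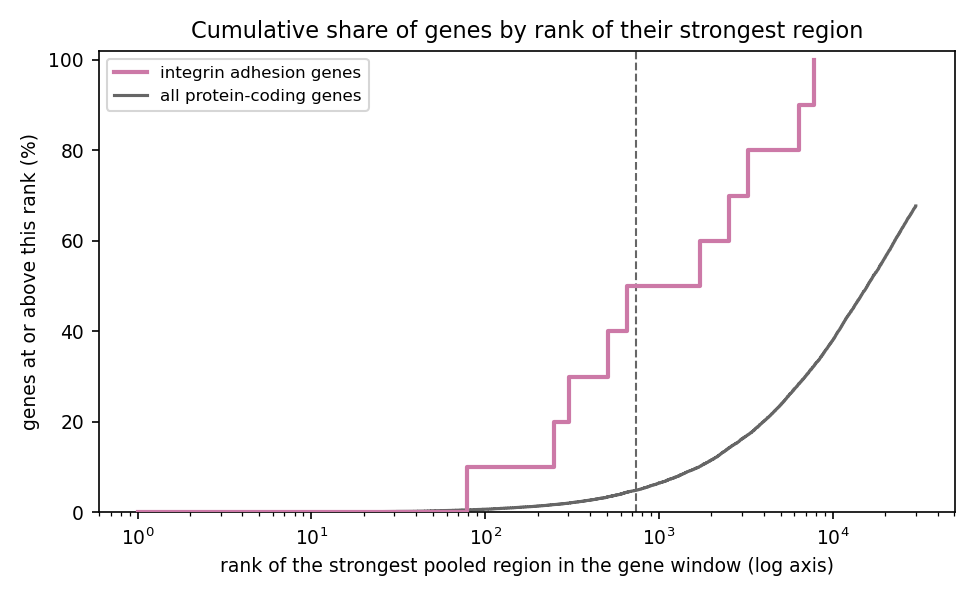
Share of genes (%) whose strongest pooled region reaches a given rank (log axis), for the 10 integrin adhesion genes (thick line) and all 19973 protein-coding genes (thin line), with a dashed line at rank 735. At that line the curves stand at 5 of 10 genes and at 4.9% of all genes. The curves are not matched for window length.

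By the strongest region in the window, the receptor genes gave the strongest and nearly the weakest result of the set. The gene pat-3 (WBGene00003930, chromosome III, 3908931 to 3914149, minus strand) codes for the beta integrin subunit. Its optimal peak had a signal of 283 in the pooled list, rank 79, and the overlapping regions had a signal of 113 and rank 70 in replicate 1 and a signal of 170.2 and rank 89 in replicate 2. Both replicates thus placed it far inside their 735 strongest regions, and their summits lay 11 and 2 bp from the pooled one. The peak was 195 bp wide, narrower than the 430 bp that is the commonest width in the list. It lay 2665 bp upstream of pat-3 and 153 bp upstream of ccdc-47, which runs the other way, with 2817 bp between the 5′ ends of the 2 genes. Which of the 2 genes it belongs to was not tested.

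Nearer to pat-3 itself, the strongest region lay 863 bp upstream. It had a pooled signal of 80.9, rank 1236, and overlapped regions at rank 2940 in replicate 1 and rank 654 in replicate 2. Replicate 2 thus had it within its 735 strongest regions and replicate 1 did not, and the summit of replicate 1 lay 280 bp away from the pooled one, 38 bp from that of a weaker overlapping pooled region 1105 bp upstream. The remaining 3 pooled regions of pat-3, all upstream, ranked from 12532 to 29560, and none lay inside the gene.

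The gene pat-2 (WBGene00003929, chromosome III, 8818899 to 8825266, plus strand) codes for the alpha subunit that pairs with PAT-3 in muscle. Its strongest pooled region lay in a coding exon, 2286 bp downstream of the 5′ end, with a signal of 46.6 at rank 6381. Replicate 2 had a region there at rank 15908, and replicate 1 had none there; the strongest region of replicate 1 lay 701 bp upstream at rank 13837. No region within the window stood out at pat-2 in these lists. At pat-3 the region that stood out in each list was the one nearer to ccdc-47. The strongest pooled region nearest to the start of pat-3 itself ranked 1236. Just outside the window, 3096 bp upstream of pat-2, a pooled region reached rank 1489, with ranks 8276 and 1487 in replicates 1 and 2.

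The integrin-binding proteins kindlin and talin both had an optimal peak upstream of a start of their own. At unc-112 (WBGene00006836, chromosome V, 14691855 to 14696654, minus strand), whose kindlin product binds the beta integrin tail and is needed to assemble the adhesions, the peak summit lay 501 bp upstream. Its pooled signal was 173 at rank 250, with a signal of 51.98 and rank 465 in replicate 1 and a signal of 123 and rank 195 in replicate 2. All 3 lists had it within the 735 strongest regions. Inside unc-112, an intron region 774 bp downstream of the start had a pooled signal of 90.0 at rank 960, the best rank among the 39 regions that lay inside any of the 10 genes. The replicates differed there, with rank 14877 in replicate 1 and rank 569 in replicate 2. The other 4 regions of unc-112, in introns and coding exons, ranked from 2666 to 12068.

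Talin is a large adaptor between integrin and actin, and tln-1 (WBGene00006771) was the longest gene of the set at 19103 bp, with 7 transcripts and 6 distinct 5′ ends. It held 19 of the 63 pooled regions. Its optimal peak lay 875 bp upstream of the first start, with a pooled signal of 107 at rank 650, a signal of 39.7 and rank 1024 in replicate 1 and a signal of 66.9 and rank 706 in replicate 2. It thus passed rank 735 in the pooled list and in replicate 2 but not in replicate 1. A further region 2371 bp upstream had a pooled signal of 87.3 at rank 1040, with ranks 927 and 1551 in replicates 1 and 2. Replicate 1 therefore had the farther region above the nearer one, and replicate 2 had them in the opposite order.

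The scaffold of integrin-linked kinase, parvin and PINCH was uneven, with an optimal peak at 1 of its 3 genes. The product of pat-4 is an integrin-linked kinase that acts as a scaffold for parvin, PINCH and kindlin. Upstream of pat-4 (WBGene00003931, chromosome III, 89453 to 94809, minus strand) the optimal peak had a pooled signal of 155 at rank 304, with a signal of 71.2 and rank 211 in replicate 1 and a signal of 89.1 and rank 373 in replicate 2. All 3 lists had it within the 735 strongest regions. Its summit lay 1543 bp upstream of pat-4, in the 1973 bp between pat-4 and the end of the next gene, C29F9.8, which runs the same way. It was 431 bp beyond the end of C29F9.8 and 766 bp from that gene's start, so pat-4 was the first gene downstream of the peak although the start of C29F9.8 was nearer.

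Closer to its start, 304 bp upstream, pat-4 had a second region with a pooled signal of 65.5 at rank 2221. The replicates differed there, with rank 16783 in replicate 1 and rank 937 in replicate 2. For parvin, pat-6 (WBGene00003932, chromosome IV, 261886 to 264232, minus strand) held a single pooled region, 296 bp upstream, with a signal of 57.9 at rank 3242, and the overlapping regions ranked 11656 in replicate 1 and 2262 in replicate 2. For PINCH, a LIM-domain adaptor, unc-97 (WBGene00006826, chromosome X, 5593133 to 5594965, plus strand) held 3 pooled regions, all upstream. The strongest lay 1205 bp upstream with a pooled signal of 71.2 at rank 1725 and ranks 3018 and 3165 in replicates 1 and 2. This was the closest match between replicates among the genes without an optimal peak. A second unc-97 region 395 bp upstream, at pooled rank 3385, was rank 1609 in replicate 1 and rank 23849 in replicate 2.

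Of the actin-linking proteins, zyxin had an optimal peak, and vinculin and alpha-actinin had none. Zyxin is a LIM-domain protein of the actin side of adhesions. At zyx-1 (WBGene00006999, chromosome II, 13056910 to 13071513, plus strand) the peak lay 240 bp upstream of the first of 6 distinct 5′ ends, with a pooled signal of 119 at rank 507. The overlapping regions had a signal of 54.5 and rank 413 in replicate 1 and a signal of 65.4 and rank 738 in replicate 2. In replicate 2 it missed the 735 strongest regions by 3 ranks, at a signal of 65.4 against 65.6 for the region at rank 735. Among the 5 optimal peaks this one lay nearest to a start of its own gene. For comparison, over the 571 genes with an optimal peak nearest to a start of their own, the summit distances had a median of -219 bp and quartiles of -627 and -31 bp.

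Alpha-actinin cross-links actin filaments in the dense body. At atn-1 (WBGene00000228, chromosome V, 12478411 to 12484449, plus strand) there were 2 overlapping pooled regions of almost equal signal, 62.67 and 62.66, 937 and 1155 bp upstream, at ranks 2538 and 2539. Replicate 1 had a region at rank 1164 with its summit at the farther position and another at rank 7615 with its summit 949 bp upstream, near the nearer position. Replicate 2 had 1 region there, at rank 8136, with its summit at the nearer position. The nearer summit was thus found at similar ranks in both replicates, the farther one in replicate 1, and no rank reached 735. Vinculin, which binds talin and actin, is encoded by deb-1 (WBGene00000942, chromosome IV, 7085215 to 7094266, minus strand), whose strongest pooled region was the weakest among the 10 genes. It lay in a coding exon, 19 bp from an internal transcript 5′ end, with a pooled signal of 43.7 at rank 7772 and ranks 12294 and 2505 in replicates 1 and 2. Outside the window, 4497 bp upstream of deb-1 and 21 bp from the start of ZC477.4, lay an optimal peak at rank 186, with ranks 374 and 136 in replicates 1 and 2. It would count for deb-1 only with a window of 5000 bp upstream, which made 6 of the 10 genes, where 6.21% of all protein-coding genes were called.

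Ordered by the strongest region in each list, which at tln-1, unc-97, atn-1 and pat-2 is not the same region in both replicates, and compared by the ranges of the 2 replicates, pat-3 (ranks 70 to 89) stood clear of the next gene. The range of unc-112 (195 to 465) overlapped those of pat-4 (211 to 373) and zyx-1 (413 to 738), and that of zyx-1 overlapped that of tln-1 (706 to 927), so the order within these pairs is not resolved. The ranges of pat-4 and zyx-1 did not overlap. Beyond tln-1, the ranges of unc-97 (1609 to 3165), atn-1 (1164 to 8136), pat-6 (2262 to 11656) and deb-1 (2505 to 12294) overlapped one another but not tln-1, and pat-2 (13837 to 15908) lay beyond all of them in both replicates. This order takes in the pat-3 and pat-4 peaks, which lay nearer to another gene's start. By the strongest pooled region nearest to a start of the gene's own, pat-3 ranked 1236 and pat-4 ranked 2221. By that measure unc-112 (250), zyx-1 (507) and tln-1 (650) were ahead of both. At their strongest pooled region the 5 genes with an optimal peak had replicate ranks that differed by a factor of 1.27 to 2.38 (median 1.77). The 4 others with a region in both replicates differed by a factor of 1.05 to 6.99 (median 5.03) when paired with the strongest overlapping region. Paired with the overlapping region of nearest summit, an alternative added after seeing the data that changed the pairing at atn-1, these 4 differed by a factor of 1.05 to 5.15 (median 2.99), while the 5 values with an optimal peak stayed as they were. The genes were split by the optimal list, which comes from the authors' reproducibility filter. Closer replicate ranks at the 5 genes are thus partly built into the split, and the difference between the 2 sets was not tested.

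**Figure D3:**
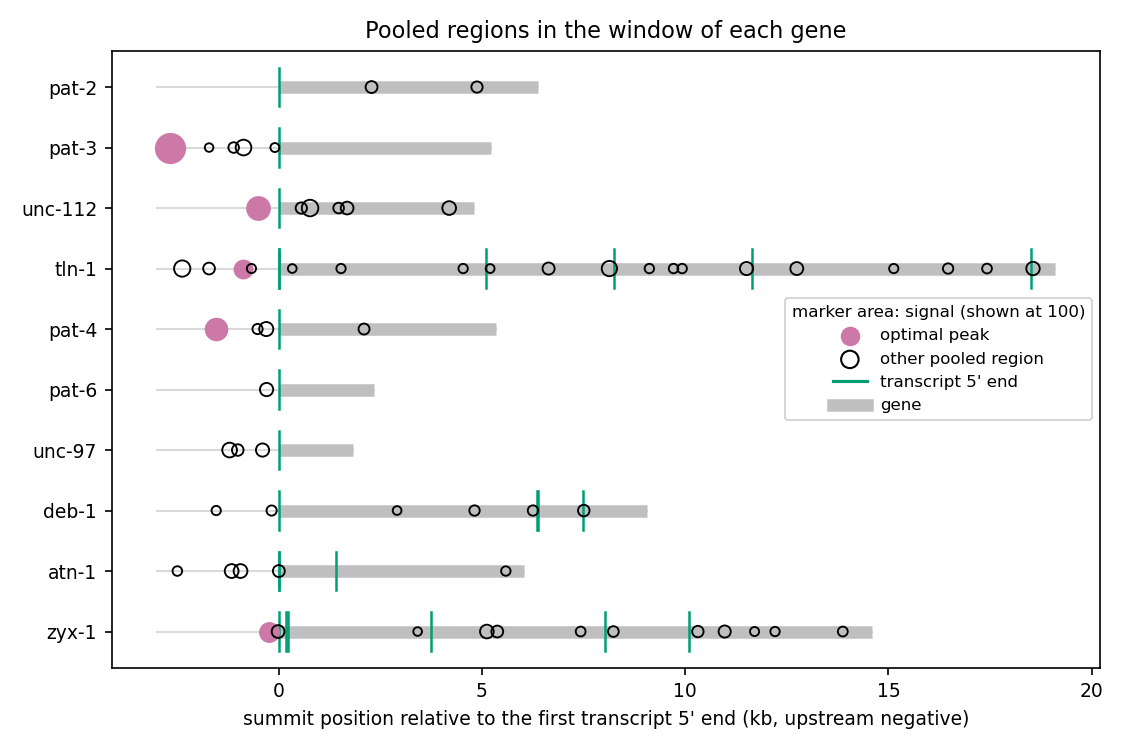
Summits of the 63 pooled regions along each gene, in kb from the first transcript 5′ end (upstream negative), with marker area in proportion to the pooled signal, filled markers for the 5 optimal peaks and open markers for the other 58 regions. Grey bars are the genes and vertical ticks their transcript 5′ ends; all filled markers lie upstream of the first 5′ end.

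Upstream regions were the stronger ones within the set. Of the 63 pooled regions 24 lay upstream of the gene, 18 in introns, 19 in coding exons, 1 in a 5′ UTR and 1 in a 3′ UTR. The 24 upstream regions had a median rank of 3313.5, and the 39 regions inside genes had a median rank of 12068. No such medians are given here for all genes, so this order cannot be called particular to the set. In all, 58 of the 63 were weaker than the optimal peaks and 21 were in the weaker 50% of the list, so many of them are background regions by design. None had its summit within 200 bp of a tRNA, rRNA, snRNA or snoRNA gene. A region of replicate 1 overlapped 49 of the 63, a region of replicate 2 overlapped 55, and 42 were overlapped in both. The pooled list was made from the same reads, and no such shares are given here for all pooled regions. These overlaps therefore cannot be called particular to the set. Of the 63 regions 20 overlapped another pooled region of the same gene and are not separate sites.

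All 10 genes had at least 1 pooled region in their window, as did 67.7% of all protein-coding genes. Per kb of window the 10 genes held 0.602 pooled regions against 0.303 for all genes, and per 100 kb they held 4.77 optimal peaks against 0.837 for all genes. The strongest region had its summit within 500 bp of a 5′ end of the gene at 3 of the 10 (pat-6, deb-1 and zyx-1), against 30.4% of all genes with a region, so that the share was at the background. Of these 3 genes zyx-1 had an optimal peak and pat-6 and deb-1 had none.

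Long genes of the set carry internal transcript starts, and most of these had a weak region nearby. Of 11 transcript 5′ ends more than 1000 bp inside a gene, 9 had a pooled summit within 250 bp, against 20.9% of 4345 such ends over all genes. In tln-1 all 4 did, in deb-1 all 3, in zyx-1 2 of 3 and in atn-1 0 of 1. The strongest was a tln-1 intron region just upstream of an internal 5′ end, with a pooled signal of 76.8 at rank 1444 and ranks 14445 and 1279 in replicates 1 and 2. At 4 of the 11 ends both replicates had a summit within 250 bp, 3 of them in tln-1 and 1 in zyx-1. No such share is given here for all genes, so that count cannot be called particular to the set. None of the pooled regions near the 11 ends was an optimal peak. Ends of the same gene cannot be taken as separate cases. The deb-1 ends 6359 and 6369 bp inside the gene, for example, were met by the same region, at pooled rank 13777. The windows of the 10 genes also held more pooled regions per kb than those of all genes (0.602 against 0.303).

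**Figure D4:**
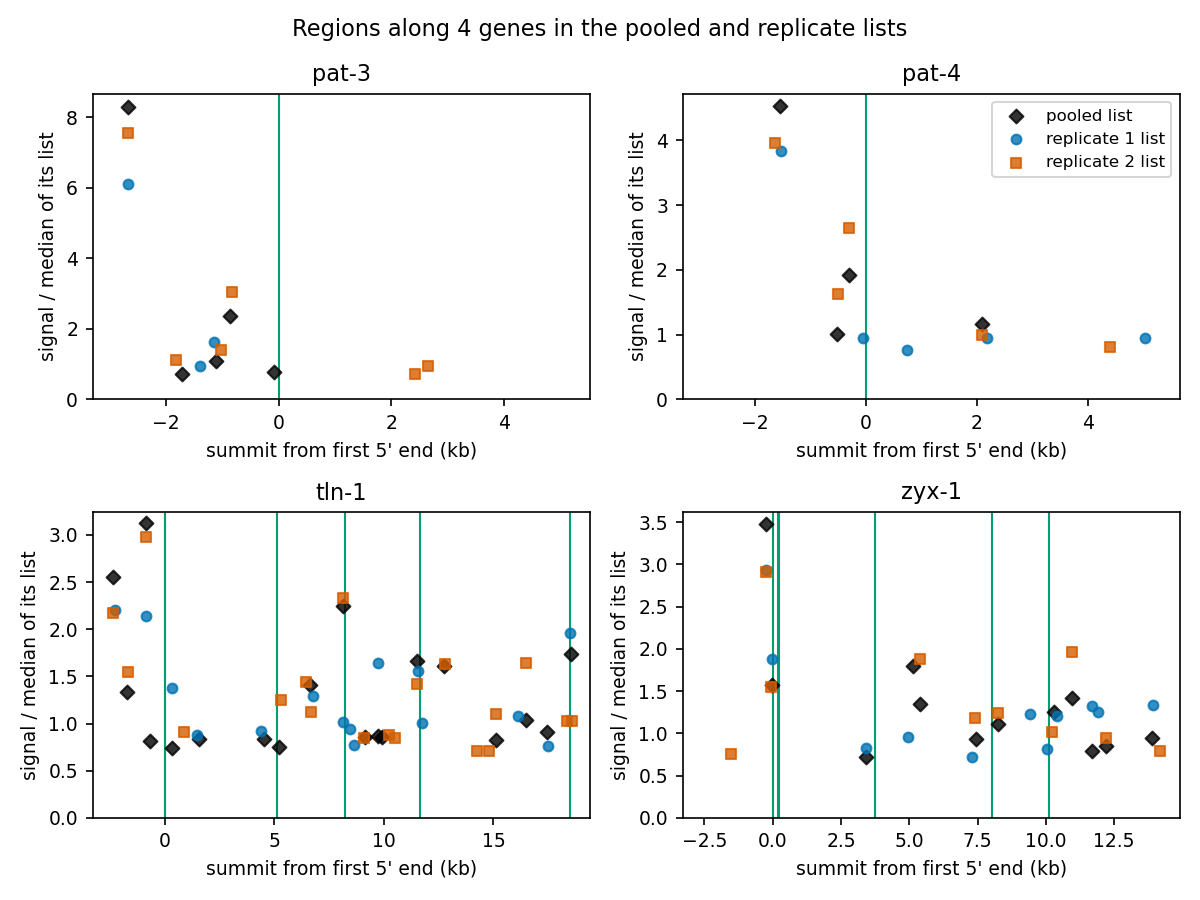
Signal divided by the median signal of its list against summit position in kb from the first 5′ end (upstream negative), for pat-3, pat-4, tln-1 and zyx-1, in the pooled list (diamonds), the replicate 1 list (circles) and the replicate 2 list (squares), with vertical lines at transcript 5′ ends. In pat-3, pat-4 and zyx-1 the highest point of every list is the upstream peak, while in tln-1 replicate 1 is highest at the farther upstream region.

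The deposited q-value separated the optimal peaks less sharply than the signal. The lowest −log10 q in the optimal list was 2.44, and 654 pooled regions outside it reached that value. At the 10 genes 3 regions did so: the unc-112 intron region (2.81), the pat-3 region 863 bp upstream (2.69) and the tln-1 region 2371 bp upstream (2.62). These 3 were also the regions ranked next after the 5 optimal peaks within the set, at ranks 960, 1236 and 1040.

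Base composition at the 5 optimal summits was like that of optimal peaks in general. Within 50 bp of the summit, GC made up 49.5% at pat-3, 47.5% at unc-112, 48.5% at pat-4, 44.6% at zyx-1 and 49.5% at tln-1. Over the 735 optimal peaks GC averaged 50.5 ± 7.23% (SD), against 41.1 ± 9.05% over the 30000 pooled regions. All 5 values were thus within 1 SD of the optimal mean.

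No single word of those searched was common to the 5 optimal summits. The words were searched on both strands within 50 bp of the summit, CAGCTG and CACGTG are themselves cases of CANNTG, and a match describes letters only. The GAGA repeat word GAGAGA was found at the pat-4 peak, and also at the weaker pat-6 region; 19.5% of optimal summits and 9.71% of pooled summits held it. CGCGCA was found at the pat-3 peak, where 12.9% of optimal and 3.39% of pooled summits held it. CANNTG, the E-box letters, was found at the pat-3 and zyx-1 peaks and at the strongest regions of pat-2, pat-6 and deb-1, a word held by 34.8% of optimal and 32.6% of pooled summits. CAGCTG (2.86% of optimal and 2.56% of pooled summits), CACGTG (2.04% and 2.23%), TGATAA (3.13% and 6.21%) and the SRF CArG box (0% and 0.76%) were found at the strongest region of none of the 10 genes. At the unc-112 and tln-1 peaks none of the 7 words was found.

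Among 32 further genes of the adhesion pathway, the matrix it binds and the attached sarcomere, 7 had an optimal peak and 25 had none. These genes were also chosen with earlier results of these data known. Over all protein-coding genes, with windows of all lengths, 4.9% had an optimal peak. The median best pooled rank of the 32 was 2496.5, against 8374 over all genes with a region, also with windows of all lengths. The 7 were src-1, a Src-family kinase (signal 193, rank 196), dim-1, an immunoglobulin-repeat muscle protein known as a suppressor of unc-112 (signal 179, rank 236), git-1, a GIT scaffold (signal 144, rank 343), rsu-1, the Ras suppressor homolog that binds PINCH (signal 130.5, rank 406), unc-23, a BAG-domain protein needed for muscle attachment (signal 125, rank 457), let-2, a type IV collagen of the basement membrane (signal 111, rank 599), and lam-2, a laminin gamma chain (signal 109.9, rank 614). At 6 of them the peak was nearest to a start of their own, and at git-1 it was nearer to mboa-7. The src-1 summit lay within 200 bp of a small RNA gene.

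The next 6 of that list were pix-1 at rank 842, the profilin gene pfn-3 at rank 885, the M-line obscurin gene unc-89 at rank 926, the type IV collagen gene emb-9 at rank 928, lim-8 at rank 962 and the ALP-Enigma gene alp-1 at rank 1348. The summits at pix-1 and lim-8 lay near small RNA genes. With the doubled threshold of 1470 regions 13 of the 32 were called, where 9.05% of all genes were. The 5 integrin adhesion genes with an optimal peak had ranks from 79 to 650, and the 7 further genes with one had ranks from 196 to 614. Both type IV collagen genes ranked above unc-97, pat-6, pat-2, deb-1 and atn-1.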

How the data were processed

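The authors deposited narrowPeak lists on ce11, per the labels, for each replicate, for the pooled reads and for the optimal peaks; the sources used here do not give the aligner, the peak caller, their versions or the IDR threshold. Values used were the authors' deposited signal per region, the authors' deposited −log10 q-value and the summit offset, which the authors deposited as a position within each region. The pooled list was made from both replicates' reads, so it is not independent of them.

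Regions were ranked by signal within a list and assigned by summit to protein-coding genes of Ensembl release 115 from 3000 bp upstream to the gene's end, where 1 summit could count for several genes. Regions of 2 lists were matched where they overlapped by at least 1 bp, and the strongest was taken where several overlapped. Signal was not compared between lists. There was 1 group, so no test was made and no p-value is given. Python 3.11.15 and matplotlib 3.10.9 were used, and the assignment was tested on simulated data.

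The 10 genes and the 32 pathway genes were chosen with earlier results of these data known. Named were all 10 genes, every pathway gene with an optimal peak and the 6 others of best rank, genes whose start lay within 1000 bp of a peak described, and noncoding genes within 200 bp of one; ZC477.4 was named after its values were seen. Alternatives were other windows, other thresholds, single replicates and leaving out summits near small RNA genes.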

Additional observations from a re-analysis of the deposited data

How the results depend on the processing

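Of 65 alternative values of the 7 counts and shares, 46 stayed within 1.5 times the main value. The number of the 10 genes with an optimal peak was 3 with a promoter window of 1000 bp upstream to 500 bp downstream, 0 within the gene body, 3 with summits nearest to a start of the gene, 3 with the stronger 50% of optimal peaks and 3 with regions among the strongest of both replicates. The share of all genes was then 2.58%, 1.15%, 2.86%, 2.50% and 3.05%, and 9.05% with 1470 regions. Of the 32 pathway genes 2 were called within the gene body, 3 with the stronger 50%, 4 with both replicates and 13 with 1470 regions. With 1470 regions within the gene body 2 of the 10 genes were called, a setting for which no share of all genes is given here. The 63 pooled regions became 26 in the promoter window and 39 in the gene body. In the promoter window 5 genes in place of 3 had their strongest region within 500 bp of a start. That window itself reaches only 1000 bp upstream and 500 bp downstream of a start, and this count has no share of all genes beside it. The cause of these moves was not tested, beyond the smaller windows and stricter thresholds themselves. Without replicate 1 the genes called were pat-3, unc-112, tln-1 and pat-4, and without replicate 2 they were pat-3, unc-112, pat-4 and zyx-1, 4 in each case. Without summits near small RNA genes the 10 genes kept all 5 calls, and the share of all genes was 3.64%. Of 76 alternative ranks of single genes 57 stayed within the spread of the replicates and 19 moved, 15 to a weaker rank and 4 to a stronger one. The spread is an SD over 2 replicates, and ranks from single replicates are among the 76. Where the replicates differ the spread is wide, so that atn-1 at rank 8136 without replicate 1, against 2538, counted as within it. The 57 thus do not show that ranks were stable. Pairing replicate regions by nearest summit, added after seeing the data, lowered the median ratio of replicate ranks at the genes without an optimal peak to 2.99, against 5.03, through atn-1. No paired analysis was possible because there is 1 group and no test. Depth is unknown, so a weak rank at pat-2 or deb-1 does not show that PAT-9 was absent there.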

Other observations

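C and T on the strand of the gene were examined at the 5 optimal summits of the set, a feature chosen after the sequences were seen. They made up 66.3% of the bases within 50 bp of the summit at unc-112, 74.3% at tln-1, 80.2% at zyx-1, 74.3% at pat-4 and 59.4% at pat-3. Over the 441 genes with an optimal peak upstream of, and nearest to, a start of their own, the share averaged 51.9 ± 9.78% (SD). The values at unc-112, tln-1, zyx-1 and pat-4 lay more than 1 SD above that mean, and that at pat-3 lay within 1 SD. However, pat-4 and pat-3 are not among those 441 genes, because their peaks lay nearer to another gene's start. Of the 441 genes 35 (7.94%) reached the 66.3% of unc-112. No test was made of a feature found in this way.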
